A study of Homo sapiens with 12 samples.

Results

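The aminoacyl-tRNA synthetases are the enzymes that join each amino acid to its tRNA. Here 37 genes, taken by symbol from a fixed list, were followed out of the 60240 genes of the deposited table. They comprise 18 enzymes of the cytosol, 2 genes whose products serve both the cytosol and mitochondria (GARS1 for glycine and KARS1 for lysine), 16 enzymes of mitochondria and AARSD1. The last is an editing factor related to the alanyl enzyme, which clears wrong amino acids from the tRNA of alanine. All 37 were found in the table, and all 37 passed the filter on low values, a normalised count of at least 10 in at least 2 libraries, as did 16152 genes of the table in all.

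In human cells most amino acids have one synthetase for the cytosol and another, encoded by a separate nuclear gene, for mitochondria. Several cytosolic enzymes sit together in the multi-synthetase complex, which is held by the scaffold proteins AIMP1, AIMP2 and EEF1E1. Many cytosolic synthetase genes are known targets of ATF4, the transcription factor of the amino-acid starvation response, through a short element called CARE, and MYC, a driver of cell growth, is known to raise the genes of protein synthesis.

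All samples were wild-type HL-60 cells, a human line derived from a promyelocytic leukaemia. Duplicate wells of 6-well plates, seeded with 100000 cells per mL, were given the demethylating drug decitabine (100 nM on each of 3 occasions, 0, 24 and 48 h) or DMSO, its vehicle. By this schedule, cells harvested at 6 h had received 1 of the 3 additions. Decitabine, once built into DNA in place of deoxycytidine, binds DNA methyltransferases covalently. Cells were harvested 6, 72 and 120 h into the experiment, and rRNA-depleted libraries were read from one end over 50 bp. Values were analysed for 11 libraries, with 2 each for decitabine at 6 h, decitabine at 72 h, decitabine at 120 h, DMSO at 6 h and DMSO at 120 h, and 1 for DMSO at 72 h. The second DMSO library of 72 h was not analysed here. Nothing in the labels says that duplicate wells came from separate cultures, and the p-values therefore reflect spread between wells, which may be technical. In bulk RNA, fewer cells of a type and less RNA per cell cannot be told apart.

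Estimated depth was 14427331 to 32908419 counts per library. All 8 myeloid genes checked for HL-60 were detected in every group. They summed to 106555 to 151206 normalised counts in decitabine libraries and 124068 to 196016 in DMSO libraries. MPO made up most of these sums, at 86060 to 178300 per library. At 120 h, 6 of the 8 genes had a negative log2 fold change (median -0.18). In contrast, all 6 lymphoid and all 4 erythroid genes stayed under 20 in every library. Of 5 epithelial genes, 3 stayed under 20 in every library, and the list summed to 11.6 to 61.6 in decitabine and 10.3 to 22 in DMSO libraries. Its gene KRT18 had 21.3 and 21.8 normalised counts in decitabine libraries of 72 h, against 0.464 in the DMSO library of 72 h. None of these genes was called by limma, and their part in the results below was not tested. The 2 decitabine libraries of 72 h stood apart from one another. Their median absolute log2 difference was 0.404 over the 37 synthetase genes, against 0.0864 to 0.143 in the other duplicate pairs. The transcript FP671120.7 took 7.31 and 3.89% of the normalised total in decitabine libraries of 120 h and 8.08 and 10.9% in DMSO libraries of 120 h, but 0.0424 to 0.794% in the 4 libraries of 6 h. At 72 h its share was 5.25% in decitabine replicate 1, 0.106% in decitabine replicate 2 and 0.0943% in the DMSO library. Its part in the results below was not tested.

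Promoter sequence was available from RefSeq for 31 of the 37 genes, as windows of 300 bases in GRCh38.p14 placed at RefSeq's start of the gene. GENCODE 29, from which gene positions below are taken, starts some of these genes elsewhere. Of the 31 windows, 10 lie wholly inside the GENCODE gene, TARS1 among those printed, and the CARS1 window has 60 bases upstream of it. LARS1, TARS3, VARS1, YARS1, AARS2 and VARS2 had none in this source. The 7 windows below are printed because they show the ATF4 element in genes that fell (AARS1, IARS1, TARS1, YARS2) and in a gene that was not called (CARS1), the window of the gene with the largest fall (MARS2), and that of the one gene with both decitabine libraries above both DMSO libraries at 120 h (HARS2). In order, they are chr16:70289457-70289756 on the minus strand, chr9:92293648-92293947 on the minus strand, chr5:33440715-33441014 on the plus strand, chr12:32755848-32756147 on the minus strand, chr11:3057374-3057673 on the minus strand, chr2:197705119-197705418 on the plus strand and chr5:140691205-140691504 on the plus strand. Each is written 5′ to 3′ on the gene's strand. Capitals mark matches, on either strand, to 4 motifs: CARE, TGATGNAA; the E-box bound by MYC, CACGTG; the ETS motif, CCGGAAGT; and the 10-base palindrome of NRF1, which is the first run of capitals in the MARS2 window. No capitals of different motifs overlap in these windows.
AARS1: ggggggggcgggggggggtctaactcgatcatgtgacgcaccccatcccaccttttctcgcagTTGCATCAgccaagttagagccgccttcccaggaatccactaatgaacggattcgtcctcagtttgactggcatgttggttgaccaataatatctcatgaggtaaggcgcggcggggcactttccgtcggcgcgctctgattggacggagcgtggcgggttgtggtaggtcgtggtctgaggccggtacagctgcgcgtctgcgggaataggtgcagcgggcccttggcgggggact
IARS1: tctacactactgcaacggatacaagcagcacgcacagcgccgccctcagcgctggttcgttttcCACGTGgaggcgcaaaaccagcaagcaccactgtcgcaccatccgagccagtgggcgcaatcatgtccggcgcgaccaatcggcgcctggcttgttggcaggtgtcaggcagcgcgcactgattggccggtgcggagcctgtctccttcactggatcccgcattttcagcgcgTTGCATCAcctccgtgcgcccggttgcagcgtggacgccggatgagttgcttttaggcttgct
TARS1: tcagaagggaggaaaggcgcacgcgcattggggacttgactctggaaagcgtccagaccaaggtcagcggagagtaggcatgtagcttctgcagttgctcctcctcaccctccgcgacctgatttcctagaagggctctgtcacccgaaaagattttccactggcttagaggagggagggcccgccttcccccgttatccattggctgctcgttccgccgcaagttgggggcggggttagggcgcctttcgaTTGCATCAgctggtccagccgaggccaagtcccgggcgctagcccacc
YARS2: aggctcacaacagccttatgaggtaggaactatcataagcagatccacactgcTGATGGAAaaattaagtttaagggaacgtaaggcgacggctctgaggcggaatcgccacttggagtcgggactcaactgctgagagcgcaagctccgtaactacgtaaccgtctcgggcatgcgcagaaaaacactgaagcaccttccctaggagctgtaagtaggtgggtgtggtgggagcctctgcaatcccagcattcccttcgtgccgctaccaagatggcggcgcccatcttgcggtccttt
CARS1: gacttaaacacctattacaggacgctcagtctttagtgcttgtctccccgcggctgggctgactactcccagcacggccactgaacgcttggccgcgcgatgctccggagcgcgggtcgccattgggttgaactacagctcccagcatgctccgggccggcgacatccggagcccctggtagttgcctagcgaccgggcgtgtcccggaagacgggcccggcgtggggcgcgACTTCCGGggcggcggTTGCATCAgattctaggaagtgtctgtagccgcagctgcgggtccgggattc
MARS2: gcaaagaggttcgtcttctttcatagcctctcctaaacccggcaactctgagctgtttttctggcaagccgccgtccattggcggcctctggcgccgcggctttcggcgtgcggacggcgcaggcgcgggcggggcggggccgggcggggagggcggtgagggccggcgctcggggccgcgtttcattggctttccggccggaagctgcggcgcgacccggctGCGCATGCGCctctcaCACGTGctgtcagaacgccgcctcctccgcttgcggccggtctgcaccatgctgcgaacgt
HARS2: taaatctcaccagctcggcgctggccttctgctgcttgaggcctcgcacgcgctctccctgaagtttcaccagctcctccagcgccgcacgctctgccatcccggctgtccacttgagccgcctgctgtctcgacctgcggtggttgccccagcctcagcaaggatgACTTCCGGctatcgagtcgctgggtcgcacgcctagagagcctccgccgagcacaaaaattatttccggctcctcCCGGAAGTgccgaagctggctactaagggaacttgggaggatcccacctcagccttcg

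The CARE letters were found in 7 of the 31 windows (22.6%), against 3.62% of 35116 windows of the same length. These 7 genes were AARS1, CARS1, IARS1, MARS1, NARS1, TARS1 and YARS2, so that 6 of 16 windows of cytosolic or both-compartment enzymes and 1 of 14 windows of mitochondrial enzymes held a match. The ETS letters stood in 7 of 31 windows (22.6%, against 4.14% of all windows), counting HARS1 and HARS2 separately although their windows overlap and hold the same 2 matches, the E-box in 4 (12.9%, against 7.26%) and the NRF1 letters in 1 (3.23%, against 1.24%). The E-box genes were IARS1, CARS2, EARS2 and MARS2, and the NRF1 match was that of MARS2. A match describes the letters only, and the differences between these shares were not tested.

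At 120 h, decitabine-treated cells had less RNA of 12 of the 20 cytosolic and both-compartment enzymes, 5 of the 16 mitochondrial enzymes and AARSD1, while the other 19 genes were not called. A limma fit over all tested genes called these 18 of 37 lower at a Benjamini-Hochberg adjusted p under 0.05 and none higher, against 6.00% of all tested genes called lower and 9.91% called higher. At an unadjusted p under 0.05, 26 were lower and 0 higher. The log2 fold change was negative for 35 of 37 genes and ran from -1.30 for MARS2 to 0.22 for HARS2. Its median was -0.69 over the 37 genes, against 0.07 over all genes tested. Under scaling to equal library totals 31 of 37 were negative, with a median of -0.56 against 0.19 over all genes, and under quantile normalisation 35 were negative, with a median of -0.71 against -0.10.

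The number of calls at 120 h depended on single libraries. Without one of the 2 decitabine libraries of 120 h it was 3 or 4 of 37, without one of the 2 DMSO libraries of 120 h it was 5 or 4, and without either DMSO library of 6 h it was 10, while the median log2 fold change stayed between -0.71 and -0.65. Over all genes those fits called between 210 and 664 lower, against 969. Without all 72 h libraries 25 of 37 genes were called lower, against 15.3% of all genes, 16 of them among the 20 cytosolic and both-compartment enzymes and 8 among the 16 mitochondrial ones.

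Both decitabine libraries lay below both DMSO libraries of 120 h for 31 of 37 genes, against 30.6% of all genes tested, and below all 5 DMSO libraries for 31 as well, against 23.3%. The 6 genes outside this pattern at 120 h were CARS1, CARS2, FARS2, HARS2, IARS2 and TARS2, 5 of which are mitochondrial enzymes. HARS2 was the 1 gene with both decitabine libraries above both DMSO libraries, an arrangement seen in 36.1% of all genes.

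**Figure D1:**
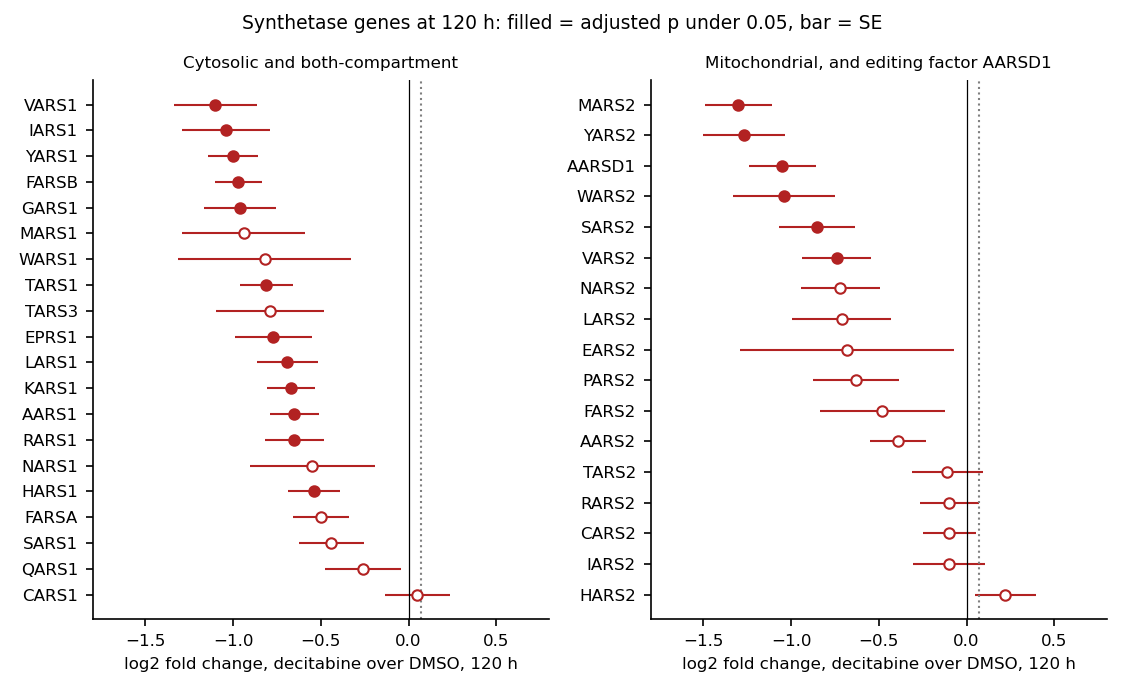
The log2 fold change of decitabine over DMSO at 120 h for each of the 37 genes, with its SE as a bar, for cytosolic and both-compartment enzymes (left) and mitochondrial enzymes with AARSD1 (right). Filled points are the 18 genes at an adjusted p under 0.05, and the dotted line is the median of all genes tested, 0.07. CARS1 and HARS2 are the 2 genes right of 0.

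Among the 20 cytosolic and both-compartment enzymes, 12 were called lower at 120 h, 19 had both decitabine libraries below both DMSO libraries, and the median log2 fold change was -0.73. Their summed normalised counts were 38671 and 39430 in decitabine libraries of 120 h, against 63377 and 67638 in DMSO libraries of 120 h. The sums did not overlap. They weight long and abundant transcripts most.

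VARS1, the valyl enzyme (GRCh38 chr6:31777518-31795953), had the most negative change of this group. Its normalised counts were 591 and 719 in decitabine libraries of 120 h, against 1589 and 1240 in DMSO libraries of 120 h. At 6 h they were 1017 and 1269 in decitabine and 1021 and 994 in DMSO libraries, and at 72 h 903 and 612 in decitabine and 1091 in the DMSO library. The 120 h decitabine libraries did not overlap with any DMSO library, while at 6 h the groups overlapped. The log2 fold change at 120 h was -1.10 ± 0.234 (SE; limma adjusted p = 0.0157), a call that was lost without DMSO 120 h replicate 1 or without either decitabine library of 120 h.

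IARS1, the isoleucyl enzyme of the multi-synthetase complex (chr9:92210207-92293756), had 2516 and 2755 normalised counts in decitabine libraries of 120 h, against 5230 and 5633 in DMSO libraries of 120 h. The decitabine libraries of 6 h held 5420 and 5490, against 5777 and 5621 in DMSO, and those of 72 h held 3468 and 1901, against 5307 in DMSO. Every decitabine library of 72 and 120 h lay below every DMSO library. The change at 120 h was -1.04 ± 0.252 on the log2 scale (SE; limma adjusted p = 0.0255), and the call was lost in 10 of 21 alternative fits.

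YARS1, the tyrosyl enzyme (chr1:32775237-32818153), had 1238 and 1310 normalised counts in decitabine libraries of 120 h, against 2527 and 2558 in DMSO libraries of 120 h. At 6 h it had 2679 and 2737 in decitabine and 2560 and 2433 in DMSO libraries, and at 72 h 1564 and 1338 in decitabine and 2453 in the DMSO library. The decitabine libraries were the higher ones at 6 h and the lower ones from 72 h on, with no overlap at any time. Such an order at 6 h was seen in 18.2% of all genes tested, and the 6 h change of YARS1 was not called. The mean at 120 h was 1274 ± 51.4 in decitabine and 2543 ± 21.8 in DMSO (SD, n = 2 each). The log2 fold change was -1.0 ± 0.144 (SE, limma adjusted p = 0.00307). YARS1 shares 396 exonic bases with S100PBP on the other strand, so its value is uncertain if counting ignored strand.

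FARSB, the beta subunit of the phenylalanyl enzyme (chr2:222570536-222656337), had 965 and 991 normalised counts in decitabine libraries of 120 h, against 1956 and 1883 in DMSO libraries of 120 h. It had 2015 and 2055 in decitabine and 2194 and 2119 in DMSO libraries of 6 h, and 1156 and 1195 in decitabine against 1787 in the DMSO library of 72 h. The decitabine values were lower at each time without overlap, by a wider margin at 72 and 120 h than at 6 h. The 6 h order was also that of 20.8% of all genes tested. The 6 h change of FARSB was -0.08 ± 0.133 (log2, SE) and was not called. The change at 120 h was -0.97 ± 0.133 (log2, SE; limma adjusted p = 0.00236). The calls of FARSB, YARS1 and MARS2 at 120 h held in all 21 alternative fits.

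GARS1, the glycyl enzyme of both compartments (chr7:30594681-30634033), had 1176 and 1395 normalised counts in decitabine libraries of 120 h, against 2418 and 2584 in DMSO libraries of 120 h. At 6 h it had 2377 and 2860 in decitabine and 2628 and 2752 in DMSO libraries, which overlapped, and at 72 h 1553 and 2220 in decitabine and 2697 in the DMSO library. The change at 120 h was -0.96 ± 0.203 (log2, SE; limma adjusted p = 0.0152). The other both-compartment gene, KARS1, fell by 0.67 (log2; limma adjusted p = 0.0126), and the calls of GARS1 and KARS1 were lost in 4 of 21 alternative fits each.

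The remaining called genes of this group fell by between 0.54 and 0.81 on the log2 scale: TARS1, EPRS1, LARS1, AARS1, RARS1 and HARS1. Their calls were lost in 4 to 12 of 21 alternative fits. MARS1 and WARS1 had changes of -0.94 and -0.82 but wide errors, 0.352 and 0.491, and were not called (limma adjusted p = 0.111 and 0.313). The 2 DMSO libraries of 120 h differed over 2-fold in MARS1, at 1663 and 3421 normalised counts. MARS1 overlaps 519 exonic bases of ARHGAP9 and 355 of DDIT3 on the other strand. The sources used here do not say whether counting used strand, and the part of these overlaps in the MARS1 values was not tested. CARS1, the cysteinyl enzyme, was the one enzyme of the group without a negative value, with 366 and 412 normalised counts in decitabine against 386 and 365 in DMSO libraries of 120 h, which overlapped (log2 0.05 ± 0.186, limma adjusted p = 0.89).

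Of the 7 enzymes of the multi-synthetase complex, 5 were called lower at 120 h (median log2 fold change -0.69), against 7 of the 13 enzymes outside it (median -0.79); without the 72 h libraries these counts were 5 and 11. Of 12 cytosolic genes listed as known ATF4 targets, 7 were called lower (median -0.79), against 5 of the 8 others (median -0.66), and 10 and 6 without the 72 h libraries. By promoter letters, 4 of 7 genes with the CARE match were called lower (median -0.81) and 10 of 24 without it (median -0.66). By the structural class of the enzymes, 10 of 19 of class I were called lower (median -0.74) and 7 of 17 of class II (median -0.63). These differences were not tested. EPRS1, which joins an enzyme of each class, was counted in class I only.

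**Figure D2:**
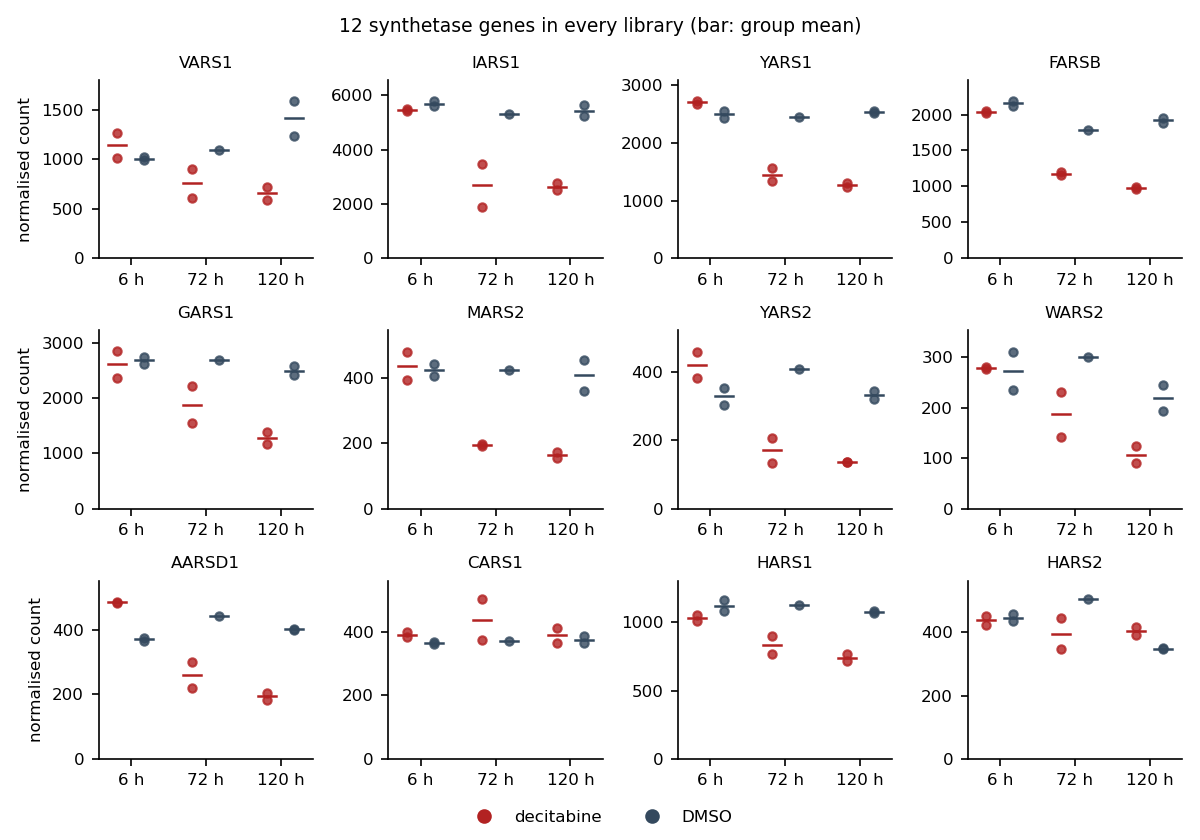
Normalised counts of 12 synthetase genes in each library at 6, 72 and 120 h, decitabine left of DMSO at each time; points are libraries and bars group means, and each axis starts at 0. In the 9 genes other than CARS1, HARS1 and HARS2, the decitabine means of 120 h are 0.403 to 0.514 times the DMSO means, while CARS1 stays level and HARS2 sits slightly higher.

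Of the 16 mitochondrial enzymes, 5 were called lower at 120 h, 11 had both decitabine libraries below both DMSO libraries, and the median log2 fold change was -0.65. Their changes were uneven. MARS2 and YARS2 had the most negative values of all 37 genes, whereas CARS2, IARS2, RARS2 and TARS2 lay between -0.11 and -0.10 and took a positive sign under equal totals. The summed normalised counts were 6143 and 6218 in decitabine libraries of 120 h, against 8045 and 8367 in DMSO libraries of 120 h, without overlap.

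MARS2, the mitochondrial methionyl enzyme (chr2:197705369-197708387), had 156 and 172 normalised counts in decitabine libraries of 120 h, against 360 and 455 in DMSO libraries of 120 h. At 6 h it had 392 and 480 in decitabine and 441 and 406 in DMSO libraries, and at 72 h 192 and 198 in decitabine and 423 in the DMSO library. The groups overlapped at 6 h, and at 72 and 120 h each decitabine library was under every DMSO library. The mean at 120 h was 59.7% lower, a log2 fold change of -1.30 ± 0.191 (SE; limma adjusted p = 0.00343).

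YARS2, the mitochondrial tyrosyl enzyme (chr12:32727490-32755902), had 137 normalised counts in both decitabine libraries of 120 h, against 320 and 343 in DMSO libraries of 120 h. At 6 h both decitabine libraries, at 458 and 383, lay above the DMSO libraries, at 302 and 354. At 72 h it had 206 and 134 in decitabine and 409 in the DMSO library. The order of the groups was thus opposite at 6 h and at the later times. The 6 h order was that of 7 of 37 synthetase genes and 18.2% of all genes tested, and the 6 h change was not called. The change at 120 h was -1.27 ± 0.233 (log2, SE; limma adjusted p = 0.0088), a call lost in 3 of 21 alternative fits.

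WARS2, the tryptophanyl enzyme of mitochondria (chr1:119031216-119140671), had 89.3 and 124 normalised counts in decitabine libraries of 120 h, against 245 and 194 in DMSO libraries of 120 h. It had 281 and 276 in decitabine and 310 and 235 in DMSO libraries of 6 h, which overlapped, and 142 and 231 in decitabine against 300 in the DMSO library of 72 h. The change at 120 h was -1.04 ± 0.290 (log2, SE; limma adjusted p = 0.0439), a call lost in 12 of 21 alternative fits.

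SARS2, for serine (chr19:38915266-38930896), had 78.8 and 99.1 normalised counts in decitabine libraries of 120 h, against 166 and 155 in DMSO libraries of 120 h, and VARS2, for valine (chr6:30908242-30926459), had 259 and 225 in decitabine, against 378 and 436 in DMSO. Neither gene overlapped between the groups at 120 h. SARS2 fell by 0.85 and VARS2 by 0.74 on the log2 scale (limma adjusted p = 0.0318 and 0.037), calls that were lost in 7 and 12 of 21 alternative fits. SARS2 had 132 and 168 in decitabine and 160 and 142 in DMSO libraries of 6 h, and 98.1 and 95.7 in decitabine against 153 in the DMSO library of 72 h, so its groups overlapped at 6 h and not at 72 h. VARS2 had 374 and 460 in decitabine and 374 and 379 in DMSO libraries of 6 h, and 377 and 296 in decitabine against 373 in the DMSO library of 72 h, so its groups overlapped at both times. Both values are uncertain, since in GENCODE 29 SARS2 shares 1492 exonic bases with AC011455.2 and VARS2 shares 1858 with GTF2H4 on the same strand.

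AARSD1 (chr17:42950526-42964498) had 182 and 206 normalised counts in decitabine libraries of 120 h, against 404 and 399 in DMSO libraries of 120 h. At 6 h it had 483 and 487 in decitabine and 376 and 365 in DMSO libraries, and at 72 h 301 and 220 in decitabine and 443 in the DMSO library. Decitabine values were above DMSO at 6 h and below it from 72 h on, with no overlap at any time. Of all genes tested, 18.2% had this order at 6 h, and the 6 h change of AARSD1 was not called. The change at 120 h was -1.05 ± 0.190 (log2, SE; limma adjusted p = 0.00824), a call lost in 3 of 21 alternative fits. AARSD1 shares 1267 exonic bases with the readthrough gene PTGES3L-AARSD1 on the same strand, so its value is uncertain.

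Enzymes for the same amino acid did not always share a call. Of 17 pairs of a cytosolic and a mitochondrial enzyme, both members were called lower in 2, for valine and tyrosine. The cytosolic member alone was called in 9, the mitochondrial member alone in 3, for methionine, serine and tryptophan, and neither in 3. The cytosolic member had the more negative value in 10 of 17. EPRS1, which charges 2 amino acids, and FARS2, set against each of 2 cytosolic subunits, stand in 2 pairs each. The differences within pairs were not tested.

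The cysteinyl and histidyl pairs were the 2 pairs with values of opposite sign, and the histidyl pair was the wider. HARS1 and HARS2 lie head to head on chromosome 5, and their promoter windows share 184 bases (chr5:140691321-140691504). HARS1 had 719 and 766 normalised counts in decitabine libraries of 120 h, against 1072 and 1083 in DMSO libraries of 120 h (log2 -0.54 ± 0.149, limma adjusted p = 0.0425, lost in 12 of 21 alternative fits). HARS2 had 416 and 393 in decitabine, against 347 and 350 in DMSO (log2 0.22 ± 0.173, limma adjusted p = 0.458). At 120 h the groups did not overlap in either gene, in opposite directions. For HARS2, both decitabine values of 120 h lay below the DMSO libraries of 6 h (459 and 436) and of 72 h (505). Its decitabine libraries held 453 and 425 at 6 h and 445 and 346 at 72 h. HARS1 and HARS2 share 437 exonic bases on opposite strands and HARS2 shares 152 with ZMAT2 on its own strand, so both values are uncertain.

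**Figure D3:**
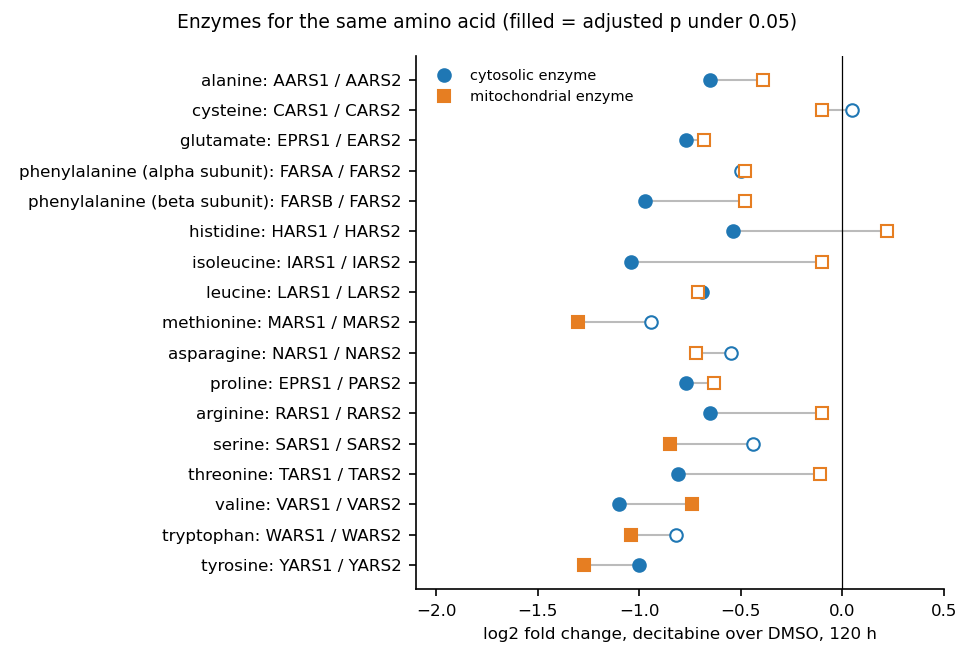
The log2 fold change of decitabine over DMSO at 120 h for the cytosolic enzyme (circle) and the mitochondrial enzyme (square) of each of 17 pairs, joined by a line; filled symbols have an adjusted p under 0.05. Valine and tyrosine are the 2 pairs with both symbols filled, and the histidine pair spans 0, from -0.54 for HARS1 to 0.22 for HARS2.

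At 72 h the same genes were mostly lower in decitabine-treated cells, but none was called. The median log2 fold change was -0.52 over the 37 genes, against 0.09 over all genes, and 31 were negative. The limma test called 0 lower and 0 higher, against 0.310% and 1.88% of all genes, and 13 were lower and 0 higher at an unadjusted p under 0.05. The smallest adjusted p was 0.053, for MARS2 (log2 -1.11 ± 0.234). Both decitabine libraries lay below the one DMSO library of 72 h for 25 of 37 genes, against 27.6% of all genes, and below all 5 DMSO libraries for 20, against 12.6%.

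The 2 decitabine libraries of 72 h gave unlike values for some genes. NARS1, the asparaginyl enzyme, had 4895 normalised counts in replicate 1 and 12400 in replicate 2, against 5656 in the DMSO library. WARS1 had 5204 and 1458, against 4862, and EARS2, the mitochondrial glutamyl enzyme, had 515 and 107, against 702. The 2 decitabine libraries were more than 2-fold apart in 4 of the 37 genes, and in 26.1% of all genes. Without replicate 2, which also had the lower FP671120.7 share, 6 genes were called lower by limma, against 1.68% of all genes: FARSB, IARS1, YARS1, MARS2, NARS2 and YARS2. Without replicate 1, 15 were called lower, against 13% of all genes, and NARS1, QARS1 and IARS2 higher, against 16.8% of all genes. With all DMSO libraries pooled as control 15 were called lower, against 7.35% of all genes.

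**Figure D4:**
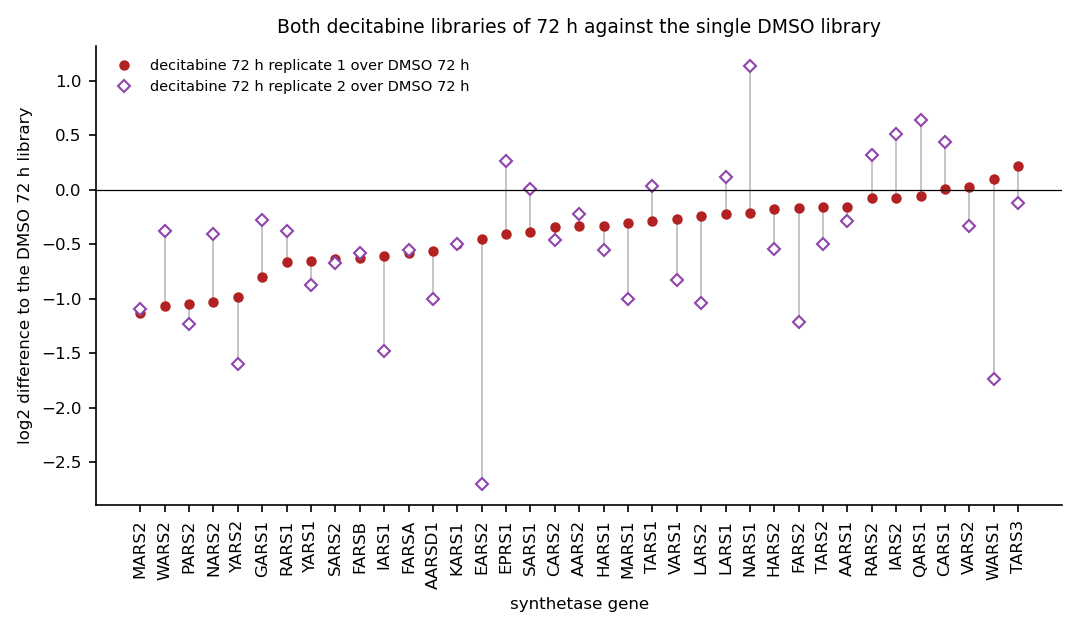
The log2 difference of each decitabine library of 72 h to the single DMSO library of 72 h for the 37 genes, replicate 1 as filled circles and replicate 2 as open diamonds, in order of replicate 1. The libraries lie close together for MARS2 and far apart for EARS2, WARS1 and NARS1.

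At 6 h no change was detected. The median log2 fold change was -0.01, with 20 of 37 negative, and limma called 0 genes in either direction, as it did over all genes (0.00% lower and 0.00% higher); at an unadjusted p under 0.05 the counts were 0 and 0 of 37 and 278 and 263 over all genes. Both decitabine libraries lay below both DMSO libraries for 7 genes (20.8% of all genes) and above them for 7 (18.2%). Time in culture alone also gave no call: DMSO cells at 120 h against DMSO cells at 6 h had a median of -0.10, with 0 genes called (0.00% of all genes in each direction) and 2 lower and 1 higher at an unadjusted p under 0.05.

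The decitabine effect at 120 h was compared with that at 6 h in the same fit. The difference of effects was negative for 33 of 37 genes, with a median of -0.65, and limma called 5 lower and 0 higher, against 1.63% and 4.27% of all genes. These were YARS2 (-1.63 ± 0.329, adjusted p = 0.0291), AARSD1 (-1.44 ± 0.269, adjusted p = 0.021), MARS2 (-1.33 ± 0.270, adjusted p = 0.0294), YARS1 (-1.11 ± 0.203, adjusted p = 0.0194) and FARSB (-0.89 ± 0.187, adjusted p = 0.0328), on the log2 scale with SE. For YARS2, YARS1 and AARSD1, part of the difference was the higher decitabine level at 6 h, where the log2 fold changes were 0.36, 0.12 and 0.39, none of them called. Each of these calls was lost in 8 to 11 of 21 alternative fits, and the count ran from 0 to 17 when single libraries were left out. Between 120 h and 72 h, 0 genes were called, and 2 were lower at an unadjusted p under 0.05.

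Other genes of the charging pathway, from lists by function, included more called lower than called higher at 120 h in all but the MYC network list. Over all genes tested, 6.00% were called lower and 9.91% higher in the same comparison. Of the 3 scaffolds of the complex, AIMP2 was called, with 374 ± 24.7 normalised counts in decitabine and 643 ± 21.2 in DMSO (SD, n = 2 each). Of 8 genes for mitochondrial charging and elongation, 4 were called lower: GATB, QRSL1 and GATC, the subunits of the enzyme that makes mitochondrial glutaminyl-tRNA by amidation, and the elongation factor TSFM, with log2 fold changes of -0.85, -0.73, -0.70 and -0.83. Of 6 cytosolic elongation factors, EEF2 alone was called (-0.83, limma adjusted p = 0.0168), and of 2 proofreading genes DTD2 (-0.78, limma adjusted p = 0.0165).

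Of 20 genes of tRNA maturation and export, 8 were called lower and 0 higher, against 6.00% and 9.91% of all genes tested. Their median log2 fold change was -0.55. POP1, a subunit of the RNase P that trims tRNA precursors, had 501 ± 136 normalised counts in decitabine and 1383 ± 119 in DMSO libraries of 120 h (SD, n = 2 each). The pseudouridine synthases PUS7 and PUS1 had log2 fold changes of -1.43 and -1.24. Of 18 genes of RNA polymerase III, which transcribes tRNA genes, and its factors, 5 were called lower and 0 higher (median -0.40), among them POLR3G, with 70.1 ± 12.6 in decitabine and 262 ± 29.7 in DMSO (SD, n = 2 each), and GTF3C2 (-1.07).

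The amino-acid starvation response had calls in both directions. Of its 19 tested genes (of 20 listed), 4 were called lower and 1 higher, against 6.00% and 9.91% of all genes tested. PSAT1, for serine synthesis, and PYCR1, for proline synthesis, had log2 fold changes of -1.35 and -1.19, while VLDLR, a lipoprotein receptor, had 1.38. ATF4 itself had 3984 and 4273 normalised counts in decitabine, against 5572 and 5918 in DMSO libraries of 120 h. Its groups did not overlap, but it was not called (log2 -0.48 ± 0.153, limma adjusted p = 0.0705). Of 10 tested amino-acid transporters (of 11), the arginine and lysine carrier SLC7A1 (-1.14) and the glutamine carrier SLC1A5 (-0.89) were called lower and the cystine carrier SLC7A11 (1.46) higher. Without the 72 h libraries, limma called 10 lower and 5 higher of the 19 starvation-response genes, 5 lower and 1 higher of the 10 transporters, 7 lower of the 8 genes of mitochondrial charging and elongation, and all 3 scaffolds lower, against 15.3% of all genes lower and 16.2% higher in that fit.

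MYC had 3444 and 3033 normalised counts in decitabine libraries of 120 h, against 14190 and 13100 in DMSO libraries of 120 h. At 72 h it had 3872 and 2839 in decitabine and 11410 in the DMSO library, and at 6 h 14180 and 15600 in decitabine and 14310 and 13610 in DMSO libraries. Its decitabine libraries of 72 and 120 h lay far below every DMSO library, with log2 fold changes of -1.78 (limma adjusted p = 0.00776) and -2.08 (limma adjusted p = 0.000342). MXD1, which pairs with MAX in place of MYC, had 2640 and 2786 in decitabine against 820 and 630 in DMSO libraries of 120 h (log2 1.92, limma adjusted p = 0.000562). The other 4 genes of the MYC network list were not called at 120 h. Whether the levels of ATF4 or MYC had a part in the synthetase values was not tested.

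**Figure D5:**
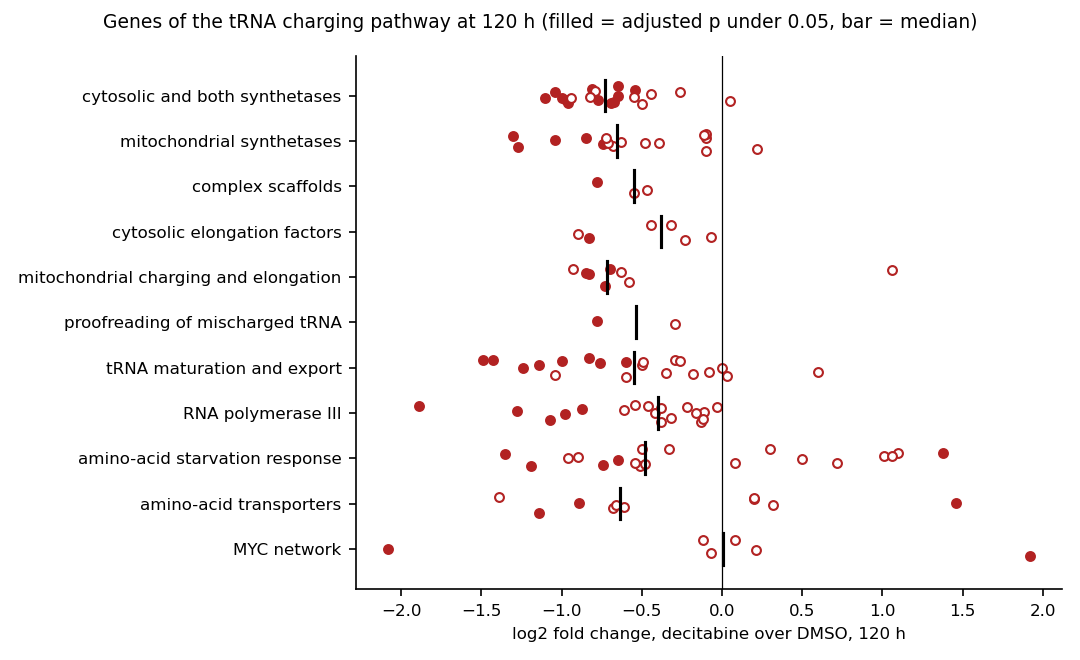
The log2 fold change of decitabine over DMSO at 120 h for each tested gene of the lists of the tRNA charging pathway, one list per row; filled points have an adjusted p under 0.05 and bars are list medians. Both rows of synthetases lie mostly left of 0, with medians of -0.73 and -0.65, and the starvation-response and transporter rows spread to both sides.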

How the data were processed

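The deposited table holds a normalised signal per gene, made by the authors from counts. Its steps are those of estimated counts scaled per library, 1 count being worth 0.407 to 0.961 units. Named in the submitters' processing notes, without their roles, are DESeq2, limma, featureCounts, STAR, Salmon 1.2.1 and hg38. Per the file headers 12 libraries are named over 11 columns of values. The heading was taken to begin over the symbol field, and then libraries of one group differed by 0.299 (mean of median absolute log2 differences) and libraries of different groups by 0.439. All results rest on this reading, and DMSO 72 h replicate 2 was not analysed.

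Values were transformed to log2(value + 1), so folds of low genes are understated, and genes reaching 10 or more in 2 or more libraries (16152) were tested. limma 3.58.1 in R 4.3.3 fitted 1 mean for each of 6 groups to 11 libraries (lmFit, eBayes with a trend; 5 residual degrees of freedom), with two-sided p-values adjusted over all genes tested. The single DMSO library of 72 h was assumed to vary like the others. The members, lists and tests were chosen with earlier results of these data known. All 37 genes could be named, with values per library for the 5 largest called changes of each compartment and the 4 largest differences between times; HARS1, HARS2, CARS1, MARS1, NARS1, WARS1 and EARS2 were added after their values were seen. Of the other lists, ATF4, MYC and the 3 largest called changes of each list were named, with GATC as the fourth of its 4; a gene that this rule names is not reported here. Positions came from GENCODE 29. Other members also share exonic bases there with genes on the other strand, among them EARS2 (370 with UBFD1), WARS1 (287 with WDR25) and KARS1 (176 with TERF2IP). Their values are likewise uncertain if counting ignored strand. Alternatives were other pseudocounts, no filter, other scalings, no trend, sample weights, the compared groups alone, a replicate block, and each library or all 72 h libraries left out. Plots were drawn with matplotlib 3.10.9.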

Additional observations from a re-analysis of the deposited data

Results flagged for a closer look

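For 5 synthetase genes the decitabine effect at 120 h differed from that at 6 h, by the interaction in the limma fit with adjustment over all genes. The difference of effects was taken as 120 h minus 6 h on the log2 scale. It was -1.63 for YARS2, -1.44 for AARSD1, -1.33 for MARS2, -1.11 for YARS1 and -0.89 for FARSB. In each, the 2 decitabine libraries of 120 h lay below all 5 DMSO libraries. So they did in 31 of 37 synthetase genes and 23.3% of all genes tested. The same 120 h values entered the interaction, so this order is no separate support.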

How the results depend on the processing

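The direction of no called gene changed under any alternative. At 120 h, 18 synthetase genes were called lower by limma with 6.00% of all genes, 11 without a trend, and 3 to 25 when single libraries were left out (3 without decitabine 120 h replicate 1, 25 without either decitabine library of 72 h); the other scalings, filters, weights and subsets gave 12 to 27. At 72 h the count was 0 in the reported fit, 1 under quantile normalisation, 1 under equal totals, 15 with all DMSO libraries pooled (7.35% of all genes), and 0 to 15 lower (0.0809 to 13% of all genes) and 0 to 3 higher (0.784 to 16.8%) when single libraries were left out. For the effect at 120 h minus that at 6 h it was 5, against 3 without a filter, 3 under equal totals, 16 with sample weights, 17 without the 72 h libraries, 17 with the compared groups only and 0 to 17 without single libraries. For 120 h minus 72 h, leaving out single libraries gave 0 to 5 lower and 0 to 2 higher, against 0 and 0. Beyond what each fit changes by construction (fewer libraries, other weights), the cause was not tested. No synthetase gene was called at 6 h or between DMSO at 120 and 6 h under any alternative run.

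With the replicate number as a block, 14 genes were called lower at 120 h and 4 in the difference between 120 h and 6 h. The numbers did not pair the libraries: correlations of deviations between groups ran from -0.0777 to 0.124 over 10 pairs of groups.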
